A study of Mus musculus with 20 samples.

Results

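The Bcl-2 family was followed in RNA-seq libraries of mouse colon through 10 genes: the pro-survival members Bcl2, Bcl2l1 (Bcl-xL) and Mcl1, the effectors Bax and Bak1, and the BH3-only members Bid, Bad, Bbc3 (Puma), Pmaip1 (Noxa) and Bcl2l11 (Bim). They were chosen by gene symbol, and the level of a gene in a mouse is the sum of the FPKM values of its Ensembl transcripts (fragments scaled by transcript length and by the size of the library), for 10 of the 32991 genes with such a sum. The study used male C57BL/6 mice in 4 groups of 5, with 1 library from each of 20 mice and each mouse in a single group. The Control group and the AOM/DSS group (Model in the labels) received double distilled water by gavage, and the PZH group and the PZH + AOM/DSS group (Model + PZH) were given PZH, the Chinese patent medicine Pien Tze Huang, at 250 mg/kg/d for 91 days. Both AOM/DSS groups were injected with the carcinogen azoxymethane (AOM, 12.5 mg/kg) and, after 7 days, drank 2% dextran sulfate sodium (DSS), a colitis-inducing agent, for 5 days followed by 2 weeks of plain water, for 4 cycles in all. Neither Control nor PZH mice received AOM or DSS. Each library is from colon tissue, for which the labels do not separate tumor from surrounding mucosa.

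Bcl-2 proteins decide whether the outer membrane of the mitochondrion stays intact. Bax and Bak form pores in it that release cytochrome c, which assembles the Apaf-1 apoptosome and activates caspases. The pro-survival proteins hold Bax and Bak in check, and BH3-only proteins, made or activated in response to stress, bind and block them or activate the effectors directly. In the gut epithelium this pathway removes crypt cells with damaged DNA, and Mcl-1, a protein with a very short life, is needed for the epithelium to survive.

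All 10 members were detected in every mouse. Per length, Mcl1 was the most abundant, with 128 to 185 FPKM in Control mice, well above Bax (39.2 to 48.6 FPKM). After Bax came Bad (27.3 to 41), Bak1 (23.2 to 35.5), Bcl2l1 (16.6 to 23.9) and Pmaip1 (10.8 to 33.2), and the ranges of neighbors in this order overlapped. Bid lay at 7.89 to 10.8 FPKM and Bbc3 at 4.29 to 8.76, again with overlap. Bcl2 (2.00 to 4.08) and Bcl2l11 (1.48 to 3.03) were the lowest and overlapped each other, so Bcl2, the gene that gave the family its name, was a minor transcript of this tissue.

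**Figure D1:**
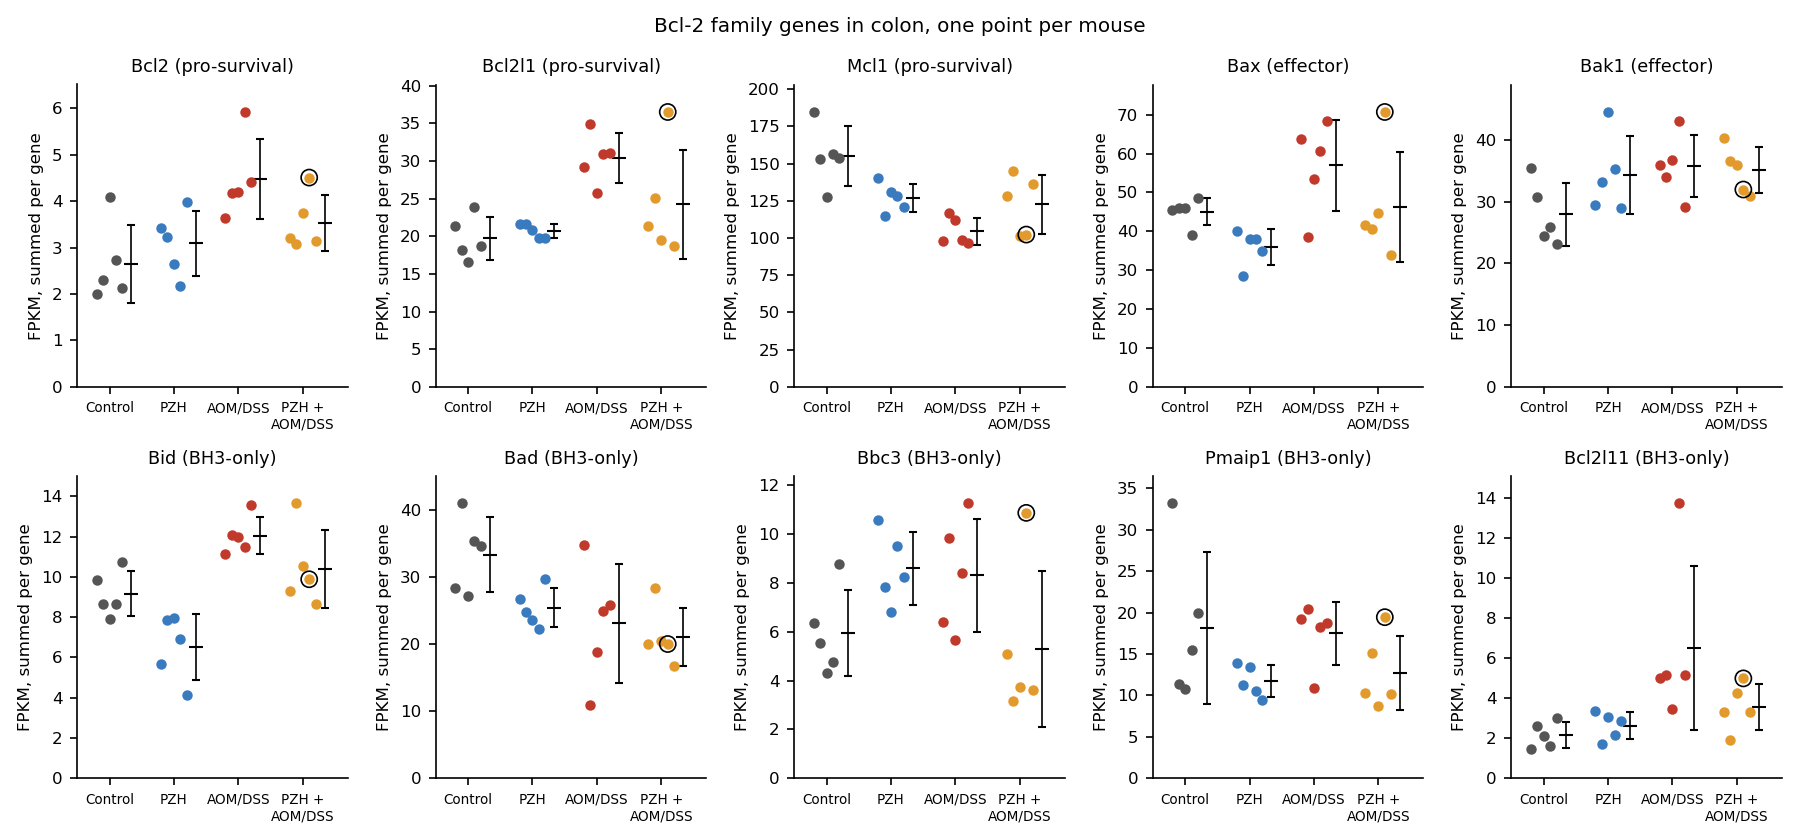
FPKM of the 10 Bcl-2 family genes (summed over the Ensembl transcripts of a gene, linear axis from 0) in each of 20 mice, with 1 point per mouse, the group mean ± SD as a bar beside the points (n = 5) and mouse 35 of the PZH + AOM/DSS group circled. Bcl2l1, Bid and Bcl2l11 of all AOM/DSS mice lay above all Control mice, and Mcl1 lay below them. The share of all genes separated in this way is not given.

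The depth of the libraries was 15350000 to 19510000 fragments, as read from the steps of the FPKM values. A list of 7 colon genes, among them Cdx1, Cdx2, Car1, Slc26a3, Muc2 and Aqp8, summed to between 884 and 3275 FPKM in the 20 libraries, so the labelled tissue was present in each. Levels of its cell type markers differed between AOM/DSS and Control mice. Of marker lists of other cell types, 3 of 4 neutrophil genes tested, 3 of 5 T cell, 2 of 5 B cell, 2 of 5 macrophage, 2 of 4 plasma cell and 2 of 4 endothelial genes were higher in AOM/DSS mice at an adjusted P under 0.05 by limma. All 5 smooth muscle genes, 4 of 7 colon genes and 1 of 6 general epithelial genes were lower. Of 5 fibroblast genes 1 was higher and 1 lower, and of 6 proliferation genes 1 was higher. Over all genes tested in this comparison, 16.4% were higher and 7.23% lower, so a count of 1 in such short lists is close to these shares. The smooth muscle sum was 1788 to 4177 FPKM in Control and 735 to 1346 FPKM in AOM/DSS mice. The sum of the neutrophil list was 80.9 to 398 FPKM in Control and 228 to 617 FPKM in AOM/DSS mice. Within that list S100a8 was at 0 to 14.1 FPKM in Control and at 60.5 to 216 FPKM in AOM/DSS mice, whereas Ly6g had 176 ± 113 and 104 ± 26.5 FPKM (SD, n = 5 each), and Cxcr2 was tested only because of its level in AOM/DSS mice. In bulk tissue, fewer cells of a type and less RNA per cell cannot be told apart, and the part of this shift in the results on the family was not tested.

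Promoter sequences are shown for Mcl1, Bcl2l1 and Bcl2l11, the 3 members whose summed level differed between AOM/DSS and Control mice in all 17 alternatives run on gene sums. They are the 250 bases before a RefSeq start site (GRCm38.p6), 5′ to 3′ on the strand of the gene, and capitals mark matches to the motifs searched.

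Mcl1, chr3:95658471-95658720, plus strand: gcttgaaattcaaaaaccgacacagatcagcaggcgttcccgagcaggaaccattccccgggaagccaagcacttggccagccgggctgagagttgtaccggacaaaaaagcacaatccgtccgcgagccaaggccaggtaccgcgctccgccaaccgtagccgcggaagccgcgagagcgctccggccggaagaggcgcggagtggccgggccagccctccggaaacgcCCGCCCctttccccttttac
Bcl2l1, distal start, chr2:152831729-152831978, minus strand: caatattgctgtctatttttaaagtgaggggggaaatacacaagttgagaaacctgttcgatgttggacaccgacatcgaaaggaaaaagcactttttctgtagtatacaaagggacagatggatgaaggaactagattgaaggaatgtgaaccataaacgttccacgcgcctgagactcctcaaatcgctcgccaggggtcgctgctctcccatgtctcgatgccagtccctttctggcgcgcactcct
Bcl2l11, chr2:128125788-128126037, plus strand: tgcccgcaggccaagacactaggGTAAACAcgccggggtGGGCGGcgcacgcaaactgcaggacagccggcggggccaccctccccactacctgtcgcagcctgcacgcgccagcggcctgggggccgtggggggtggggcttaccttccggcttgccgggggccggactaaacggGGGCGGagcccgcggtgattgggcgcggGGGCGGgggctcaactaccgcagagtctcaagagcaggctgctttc

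The Bcl2l11 stretch held 1 FOXO motif (GTAAACA) and 3 GC boxes (GGGCGG), the Mcl1 stretch 1 GC box on its other strand, and the Bcl2l1 stretch none of the 6 motifs. Motifs were searched on both strands of windows from 250 bases before to 50 bases after a start, and none of them contains another. The other 4 were a STAT motif (TTCNNNGAA), a TATA box (TATAAA), an E-box (CACGTG) and a CRE (TGACGTCA). Among 32851 mouse promoter windows, 3.6% held the FOXO motif, 35.7% a GC box, 8.3% the STAT motif, 13.6% the TATA box, 7.2% the E-box and 1.8% the CRE. RefSeq windows matched 9 of the 10 members, 15 windows in all, and Pmaip1 had no entry. A GC box stood in 10 of the 15 windows, from 7 members, and the FOXO motif in 2, one of Bcl2l11 and one of Bbc3. An E-box stood in the window of Bax and in one window of Bbc3. The STAT motif, the TATA box and the CRE were in 0 of the 15. The windows ranged from 49.3 to 78.0% GC against a median of 52.7% over all windows. A match is a stretch of letters and does not show that a factor binds there.

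In the comparison of AOM/DSS with Control mice, which asks how the family stands in the colitis and tumor model, 5 of the 10 members changed. Bcl2l11, Bcl2l1, Bcl2 and Bid rose and Mcl1 fell. The test was limma on log2(FPKM + 1) with P adjusted over all genes (Benjamini-Hochberg), in which 23.6% of the 15812 genes tested passed, 16.4% higher and 7.23% lower. At an unadjusted P under 0.05, 7 members passed, against 36% of all genes. The median log2 fold change of the members was 0.36 and that of all genes 0.09. Where groups of a gene are said not to overlap, here or below, this describes its values. The share of all genes without overlap is not given.

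Among the pro-survival genes, Mcl1 (chr3:95658788-95663176, plus strand, GRCm38) moved opposite to the others. It had 185, 153, 128, 157 and 154 FPKM in Control mice 17, 37, 41, 48 and 50. In AOM/DSS mice 23, 30, 33, 44 and 52 it had 98.0, 117, 112, 98.4 and 96.9 FPKM. The groups did not overlap, and the highest AOM/DSS mouse lay below the lowest Control mouse. On the log2(FPKM + 1) scale Mcl1 fell by 0.56 (SE 0.11, adjusted P = 0.00425 by limma).

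Bcl2l1 (chr2:152780668-152831728, minus strand), which encodes Bcl-xL, had 21.3, 18.2, 16.6, 23.9 and 18.7 FPKM in the Control mice in the same order. The AOM/DSS mice had 29.2, 35, 25.8, 31.0 and 31.1 FPKM. Again no mouse of one group reached the range of the other, and the log2 fold change was 0.60 (SE 0.12, adjusted P = 0.00486).

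Bcl2 (chr1:106538178-106714274, minus strand) was at 2.00, 2.3, 4.08, 2.73 and 2.14 FPKM in Control and at 3.64, 4.18, 4.20, 5.92 and 4.41 FPKM in AOM/DSS mice. The groups overlapped through Control mouse 41. The log2 fold change was 0.60 (SE 0.17, adjusted P = 0.0291). This call was lost without any one of Control mice 17, 37, 48 and 50 or AOM/DSS mice 33, 44 and 52, with adjusted P between 0.0508 and 0.0717. It was also lost when no filter on level was used (adjusted P = 0.0532 by limma).

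The effectors did not pass the test. Bax (chr7:45461697-45466898, minus strand) had 45.1 ± 3.53 FPKM in Control and 57.0 ± 11.7 FPKM in the AOM/DSS group (SD, n = 5 each), a log2 difference of 0.31 (SE 0.15, adjusted P = 0.160). AOM/DSS mouse 30, at 38.5 FPKM, lay below all Control mice, and the other 4, at 53.4 to 68.4 FPKM, above them. Without mouse 30 the difference was 0.44 with an adjusted P of 0.0149. Bak1 (chr17:27019810-27029009, minus strand) had 27.9 ± 5.11 FPKM and 35.8 ± 5.03 FPKM (SD, n = 5 each), a log2 difference of 0.35 (SE 0.14, adjusted P = 0.0941). Without Control mouse 17 the value was 0.44 with an adjusted P of 0.0387.

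Bcl2l11 (chr2:128126038-128162547, plus strand) encodes Bim, a BH3-only protein that binds every pro-survival member. It showed the highest log2 fold change of the 10 members. Control mice had 1.48, 2.63, 2.1, 1.6 and 3.03 FPKM, and AOM/DSS mice 5.01, 5.18, 3.48, 13.7 and 5.16 FPKM. The groups did not overlap and mouse 44 stood far above the other AOM/DSS mice. The log2 fold change was 1.14 (SE 0.29, adjusted P = 0.0169), and it was 0.86 (adjusted P = 0.0138) without mouse 44.

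Bid (chr6:120891930-120916853, minus strand), which links caspase-8 to the mitochondrion, had 9.82, 8.66, 7.89, 8.67 and 10.8 FPKM in Control and 11.1, 12.1, 12, 11.5 and 13.6 FPKM in AOM/DSS mice. All AOM/DSS mice lay above all Control mice, by a small margin. The log2 fold change of 0.36 (SE 0.11, adjusted P = 0.0335) was no longer called without any one of Control mice 37, 41 and 48 or AOM/DSS mice 30, 33, 44 and 52 (adjusted P 0.0572 to 0.0873). After median of ratios scaling between mice it was 0.26 with an adjusted P of 0.128. With all 20 mice in one model the Bid call was lost as well (adjusted P = 0.0731 by limma).

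The other BH3-only genes overlapped between the groups. Bad (chr19:6941861-6951899, plus strand), which is held inactive by survival signaling, had 33.3 ± 5.61 FPKM in Control and 23.1 ± 8.83 FPKM in the AOM/DSS group (SD, n = 5 each), with a log2 difference of -0.59 (SE 0.26, adjusted P = 0.126). Bbc3 (chr7:16308393-16318205, plus strand), a p53 target, had 5.93 ± 1.77 and 8.30 ± 2.33 FPKM, with a difference of 0.42 (SE 0.21, adjusted P = 0.186). Pmaip1 (chr18:66458533-66465565, plus strand), whose protein Noxa binds Mcl-1, had 18.2 ± 9.15 and 17.5 ± 3.81 FPKM, with a difference of 0.04 (SE 0.29, adjusted P = 0.945).

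With single transcripts in place of sums, 2 of 23 member transcripts tested (8.7%) were called between AOM/DSS and Control mice, close to the 8.2% of all transcripts tested. They were the single transcript of Mcl1 (log2 difference -0.56, adjusted P = 0.0126) and Bax-203 (0.59, adjusted P = 0.0469). No transcript of Bcl2l1 or Bcl2l11 passed, and the lowest adjusted P among them was 0.0582 for Bcl2l1 and 0.0766 for Bcl2l11. Bax-203, a coding transcript, had 11.5, 13.5, 16.2, 17.2 and 12.2 FPKM in Control and 21.1, 28.7, 18.0, 19.5 and 21.9 FPKM in AOM/DSS mice, so its groups did not overlap. StringTie divides the fragments of a gene between overlapping transcripts, so these values are less certain than sums. Sums have limits too. Among epithelial genes, the Epcam sum was 0 FPKM in all 5 Control mice and 0 to 865 FPKM in PZH + AOM/DSS mice. The Krt8 sum ran from 0.105 to 3071 FPKM within the Control group. Assembled transcripts without a gene name are left out of the sums, and their part in such values was not tested.

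**Figure D2:**
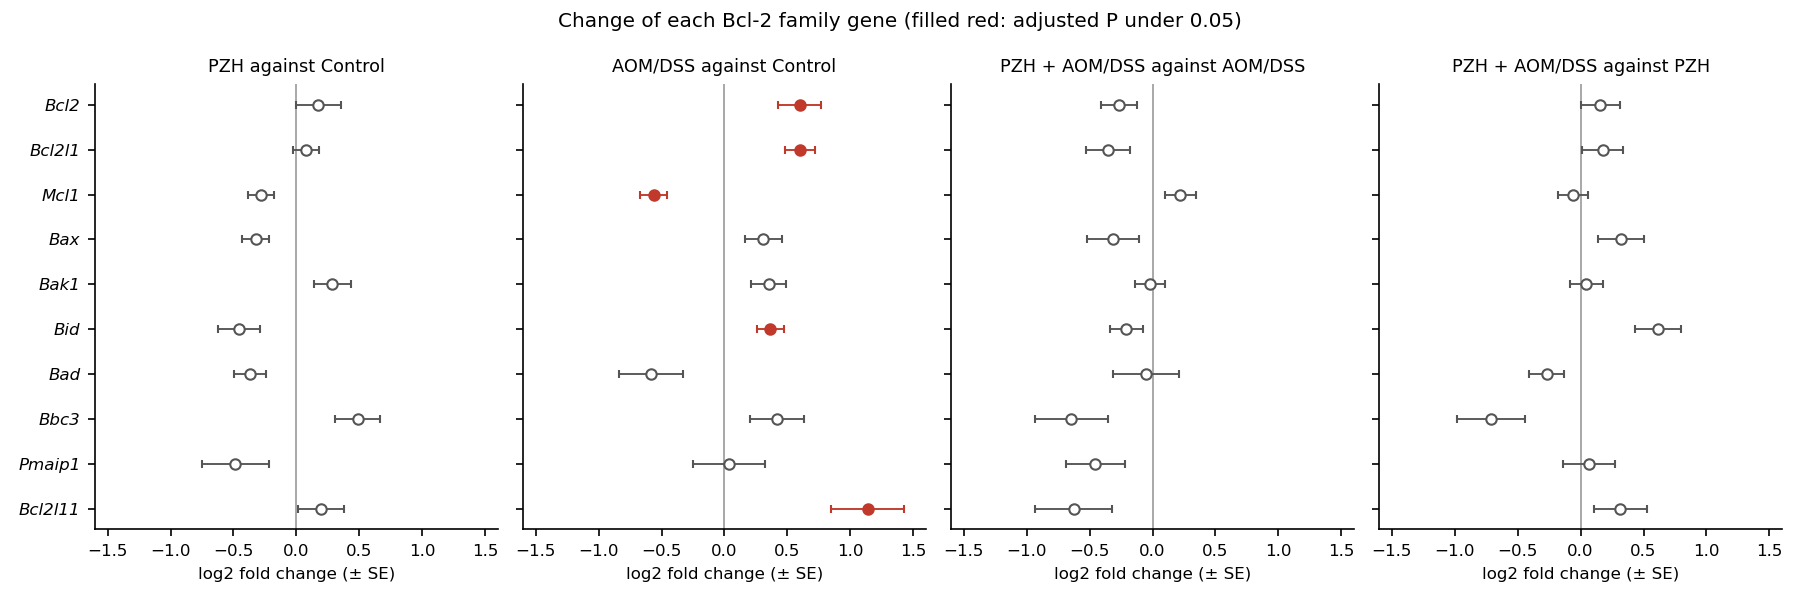
Log2 fold change (log2(FPKM + 1) scale) of each member in 4 comparisons of 5 mice with 5, with bars for ± SE from limma and filled red points for an adjusted P under 0.05. The 5 filled points are in AOM/DSS against Control, 4 to the right of 0 and Mcl1 to the left at -0.56.

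The opposite course of Mcl1 and Bcl2l1 changed the makeup of the pro-survival messages. Mcl1 made up 85.5 to 88.8% of the summed FPKM of Mcl1, Bcl2l1 and Bcl2 in Control mice, and 72.7 to 78.9% in AOM/DSS mice. Bcl2l1 made up 10.2 to 13% in Control and 18.2 to 23.5% in AOM/DSS mice. PZH mice lay in between, with 82.2 to 85.4% Mcl1 and 13.1 to 15.5% Bcl2l1. In the PZH + AOM/DSS group the Mcl1 share was 83.9, 83.7, 81.4, 71.4 and 86.2% in mice 2, 13, 15, 35 and 36. Mouse 35 was lower than every AOM/DSS mouse, and the other 4 were above all of them. These shares are given as descriptions, without a test. Pro-survival relatives outside the 10 members, such as Bcl2a1b (15.6 ± 3.21 FPKM in AOM/DSS mice, SD, n = 5), are not part of them.

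**Figure D3:**
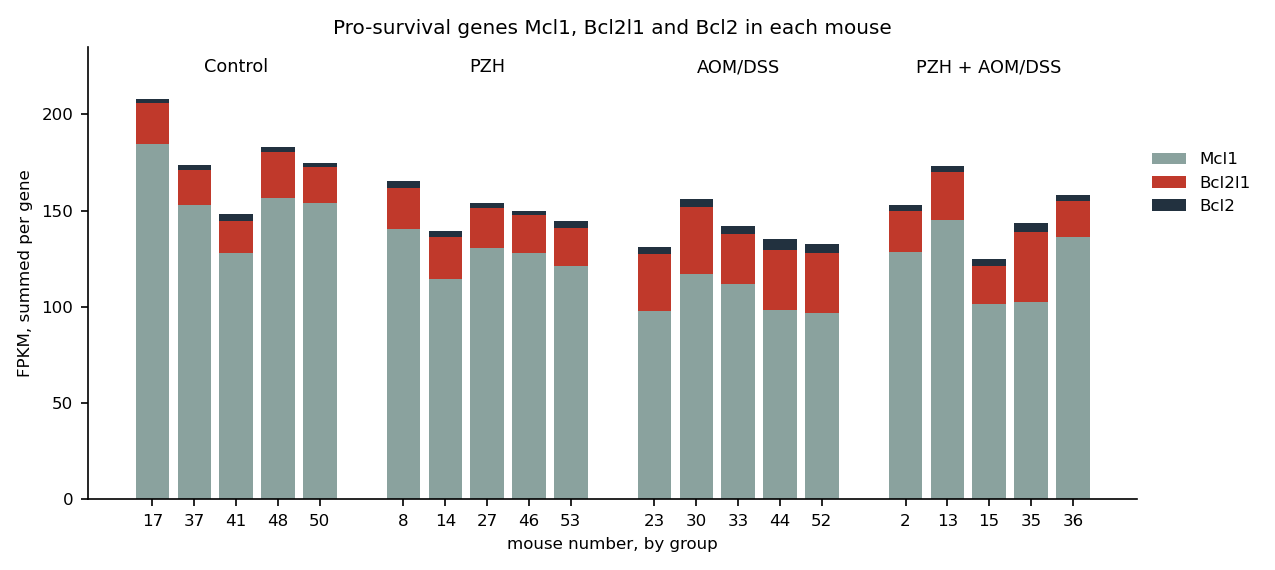
Stacked FPKM of the pro-survival genes Mcl1, Bcl2l1 and Bcl2 in each of 20 mice, grouped by treatment, on a linear axis from 0. Bars of AOM/DSS mice have a shorter Mcl1 part (96.9 to 117 FPKM) than bars of Control mice (128 to 185 FPKM) and a taller Bcl2l1 part.

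Summed over the family, the 7 pro-apoptotic genes stood at 0.715 to 0.852 times the 3 pro-survival genes in Control mice and at 0.786 to 0.892 times in PZH mice. AOM/DSS mice 23, 30, 33, 44 and 52 had ratios of 1.35, 0.840, 0.994, 1.34 and 1.3. The ratio was thus above the Control range in 4 of 5 AOM/DSS mice, and mouse 30, the mouse with little Bax, lay within it. PZH + AOM/DSS mice 2, 13, 15, 35 and 36 had 0.85, 0.805, 1.03, 1.17 and 0.679. The ratio of Bax to Bcl2, often quoted as an index of apoptosis, ranged from 11.3 to 22.8 across Control mice and from 8.76 to 17.6 across PZH mice. Its range was 9.20 to 17.5 with AOM/DSS and 10.8 to 15.7 with AOM/DSS and PZH together, so all 4 groups overlapped. Equal weight was given to each FPKM in these sums, although the proteins differ in abundance and binding.

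Bcl2l1 is transcribed from several starts, and 9 Ensembl transcripts were listed. A distal transcript begins where the sequence printed above ends, and a proximal transcript begins further into the gene. Control mice 17, 37, 41, 48 and 50 had 8.72, 10.1, 1.22, 10.5 and 13.1 FPKM of the distal and 8.49, 5.45, 11.6, 7.86 and 3.18 FPKM of the proximal transcript. AOM/DSS mice 23, 30, 33, 44 and 52 had 3.56, 19.3, 2.85, 2.38 and 3.08 FPKM of the distal and 20.6, 8.07, 15.8, 23.4 and 22.7 FPKM of the proximal transcript. The proximal transcript was thus the higher one in 4 of 5 AOM/DSS mice. The split between them also flipped between mice of 1 group, from 3.41 to 89.3% of the pair for the proximal one in PZH mice. The part of the division of fragments between overlapping transcripts in this split was not tested, and no use of a start is read from it. The gene sum varied far less, from 19.7 to 21.7 FPKM in PZH mice.

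**Figure D4:**
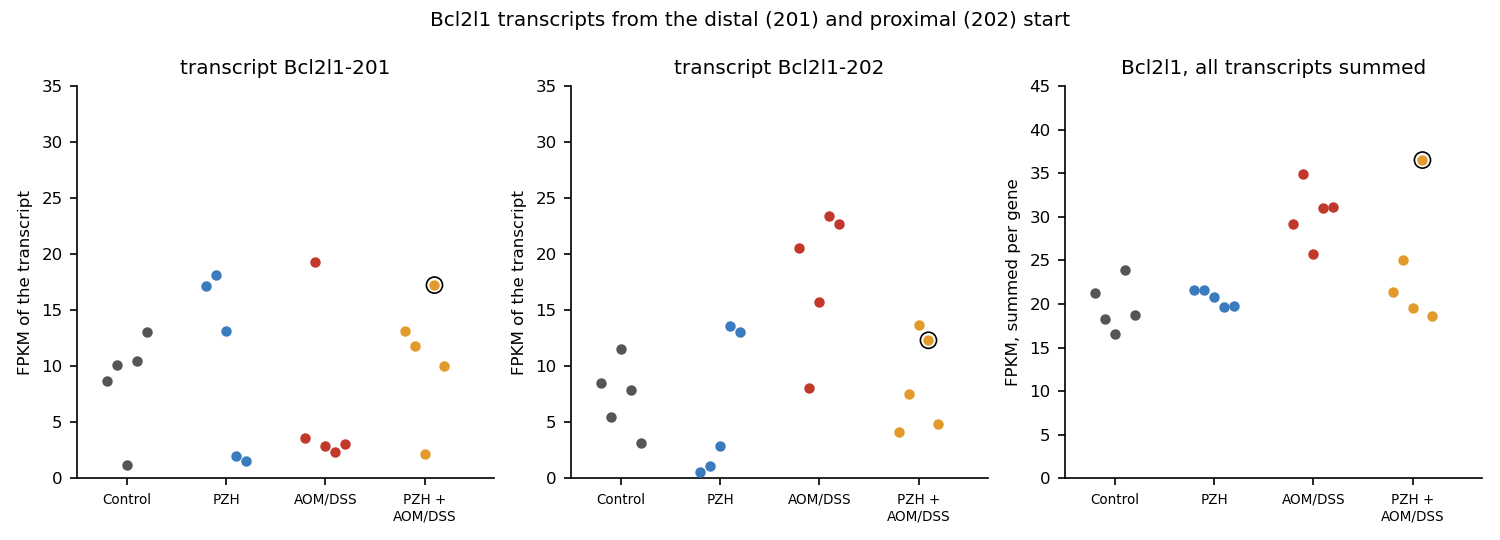
FPKM of the Bcl2l1 transcripts called distal and proximal and of all Bcl2l1 transcripts summed, 1 point per mouse in 4 groups of 5, linear axes from 0, with mouse 35 circled. Single transcripts scatter within groups (0.604 to 13.6 FPKM for the proximal one in PZH mice) and the gene sum much less.

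For PZH alone against Control, which asks what the medicine does in healthy colon, no member passed the adjusted test (adjusted P 0.512 to 0.855). Over all genes 0.00645% passed, which is 1 gene of 15506. At an unadjusted P under 0.05, 5 members differed by limma, against 8.84% of all genes. Tissue markers moved here too. The smooth muscle sum was 871 to 1885 FPKM in PZH mice, against 1788 to 4177 FPKM in Control mice, with a median log2 difference of -0.75 over its 5 genes, of which 0 were called, and its part in these differences was not tested. Bbc3 was higher in PZH mice, at 10.6, 7.80, 6.80, 9.52 and 8.23 FPKM in mice 8, 14, 27, 46 and 53 against 6.36, 5.53, 4.29, 4.74 and 8.76 FPKM in the Control mice (log2 difference 0.49, SE 0.18, unadjusted P = 0.0202). The groups overlapped only through Control mouse 50. Bax was 35.9 ± 4.57 FPKM in PZH and 45.1 ± 3.53 FPKM in Control mice (SD, n = 5 each, log2 difference -0.32, unadjusted P = 0.0112). Bad (25.5 ± 2.95 FPKM), Bid (6.52 ± 1.61 FPKM) and Mcl1 (127 ± 9.70 FPKM, SD, n = 5 each) were also lower in PZH mice, with log2 differences of -0.37, -0.46 and -0.28 and unadjusted P of 0.0151, 0.0184 and 0.0204. For Bax, Bad and Bid, 4 of 5 PZH mice lay below all Control mice, and for Mcl1 it was 2 of 5.

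In the comparison of PZH + AOM/DSS with AOM/DSS mice, which asks whether PZH alters the family in the model, no member was called with all 10 mice (adjusted P 0.426 to 0.964, against 0.00629% of all genes called). The unadjusted test passed 1 member, Bbc3, against 11.7% of all genes. The log2 difference was below 0 for 9 members and above 0 for Mcl1 (0.22, SE 0.12, adjusted P = 0.510). This comparison uses the same AOM/DSS mice as the one with Control, so the directions of both are not independent.

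One mouse stood apart in this group. PZH + AOM/DSS mice 2, 13, 15, 35 and 36 had 5.07, 3.16, 3.73, 10.9 and 3.62 FPKM of Bbc3, while AOM/DSS mice 23, 30, 33, 44 and 52 had 6.41, 9.83, 5.64, 8.38 and 11.2 FPKM. All PZH + AOM/DSS mice except mouse 35 lay below the lowest AOM/DSS mouse. Bcl2l1 was 21.4, 25.1, 19.5, 36.5 and 18.7 FPKM in the treated mice, so that 4 lay below the AOM/DSS range (25.8 to 35 FPKM) and mouse 35 above it. Bax of mouse 35 was 70.7 FPKM, above all AOM/DSS mice, against 33.9 to 44.7 FPKM in its group. Its colon genes summed to 884 FPKM, below the AOM/DSS range of 969 to 1843 FPKM, whereas the other 4 mice had 2231 to 3275 FPKM. Its depth lay within the range of the other libraries, and the part of tissue makeup in its values was not tested.

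Without mouse 35, Bcl2l1 (log2 difference -0.51, SE 0.12, adjusted P = 0.0441) and Bbc3 (-0.90, SE 0.21, adjusted P = 0.0378) were called lower in PZH + AOM/DSS than in AOM/DSS mice, against 5.17% of all genes. At an unadjusted P under 0.05, 7 members passed, against 21.7% of all genes. Besides Bcl2l1 and Bbc3, these were Bax, Pmaip1, Bcl2l11 and Bcl2, lower, and Mcl1, higher (0.28, adjusted P = 0.211). Leaving out any other mouse called no member. Mouse 35 was singled out by its own values of Bbc3, Bcl2l1 and Bax. P-values without it therefore depend on that choice and are given as a description, here and in the results without mouse 35 below. The full group had 24.2 ± 7.30 FPKM of Bcl2l1 and 5.29 ± 3.19 FPKM of Bbc3 (SD, n = 5), against 30.4 ± 3.34 and 8.30 ± 2.33 FPKM with AOM/DSS alone, and with it neither call was made (log2 differences -0.35 and -0.64, adjusted P = 0.456 and 0.426).

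Mcl1 was 128, 145, 102, 102 and 136 FPKM in PZH + AOM/DSS mice 2, 13, 15, 35 and 36. Mice 2, 13 and 36 were above the AOM/DSS range of 96.9 to 117 FPKM and within the Control range, and mice 15 and 35 were within the AOM/DSS range. Bcl2l11 was 3.32, 1.93, 4.25, 4.99 and 3.33 FPKM, with 3 of 5 mice below the lowest AOM/DSS mouse (3.48 FPKM), a log2 difference of -0.63 (SE 0.31, adjusted P = 0.455). Bid, at 8.64 to 10.6 FPKM in 4 of the mice, was below the AOM/DSS range in these and above it in mouse 13 (log2 difference -0.21, adjusted P = 0.542). Among 22 member transcripts tested, 4 (18.2%) had an unadjusted P under 0.05, the proximal and 1 other of Bcl2l1, 1 of Bbc3 and 1 of Bax, all lower, against 9.26% of all transcripts, and none passed after adjustment.

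Between PZH + AOM/DSS and PZH mice, that is AOM/DSS in mice that all had PZH, no member was called, against 2.42% of all genes. The unadjusted test passed 2 members, against 20.9% of all genes. Bid was 9.27, 13.6, 10.6, 9.88 and 8.64 FPKM in PZH + AOM/DSS and 5.66, 7.88, 7.97, 6.91 and 4.16 FPKM in PZH mice. The groups did not overlap, with a log2 difference of 0.61 (SE 0.18, adjusted P = 0.0938), and the adjusted P was 0.0182 with all 20 mice in one model. Bbc3 was lower, by a log2 difference of -0.71 (SE 0.27, adjusted P = 0.164). Without mouse 35 the Bbc3 difference was -0.97 (adjusted P = 0.0269, against 1.66% of all genes called and 19.8% at an unadjusted P), and Bid had an adjusted P of 0.130.

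Whether AOM/DSS acted differently with and without PZH was tested by the interaction over all 20 mice. No member was called (0.0118% of genes were), and 4 had an unadjusted P under 0.05, against 10.3% of all genes. These were Bbc3 (-1.13, SE 0.35, unadjusted P = 0.00470), Mcl1 (0.50, SE 0.16, unadjusted P = 0.00528), Bcl2l11 (-0.82, SE 0.37, unadjusted P = 0.0386) and Bcl2l1 (-0.43, SE 0.20, unadjusted P = 0.0499), and their adjusted P was 0.358 or more. Bbc3 shows the pattern most plainly. With PZH its mean went from 5.93 to 8.59 FPKM in mice without AOM/DSS, and from 8.30 to 5.29 FPKM in mice with it. Without mouse 35, Bbc3 (-1.39, adjusted P = 0.00877) and Bcl2l1 (-0.58, adjusted P = 0.0492) were called, against 2.83% of all genes, and 5 members had an unadjusted P under 0.05, against 16.1%.

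Among relatives of the family outside the 10 members, Bmf and the Bcl2a1 genes rose in AOM/DSS mice. Of 15 listed, 13 were tested from Control to AOM/DSS, with a median log2 fold change of 0.59 against 0.09 for all genes. Of these, 6 rose and none fell, against 16.4% of all genes higher and 7.23% lower. The 6 were Bcl2a1b, Bmf and Bcl2a1a and, named here after their values were seen, Bcl2a1d, Bcl2l15 and Bok. Bcl2l15 was below 0.5 FPKM in all Control mice and was tested only through its level in AOM/DSS mice, and without it 5 of 12 rose, with a median of 0.55. The others, such as Bcl2l13 (0.012) and Bcl2l2 (0.19), did not pass the test. Hrk and Bcl2l10 were too low to test. Bcl2a1b and Bcl2a1a (log2 fold changes 1.73 and 1.41, SE 0.29 and 0.23, adjusted P = 0.00184 and 0.00160) encode A1, a pro-survival protein of leukocytes, and share much of their sequence with Bcl2a1d, so their separate values are uncertain. Leukocyte markers were higher in the same mice, as given above, and their part in these values was not tested.

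Bmf encodes a BH3-only protein that is bound to the actin cytoskeleton and freed on loss of anchorage. It had 3.30, 3.0, 1.83, 2.80 and 3.59 FPKM in Control and 10.7, 12.1, 8.39, 14.5 and 12.5 FPKM in AOM/DSS mice, with no overlap (log2 fold change 1.69, SE 0.17, adjusted P = 8.5e-05). In PZH + AOM/DSS mice it was 2.14, 4.05, 2.98, 18.9 and 3.76 FPKM, so 4 mice lay in or near the Control range and mouse 35 above all AOM/DSS mice. The difference from AOM/DSS mice was -1.13 (SE 0.43, adjusted P = 0.375) with all mice and -1.58 (SE 0.19, adjusted P = 0.00554) without mouse 35. Bok, a Bax-like gene, was 12.5, 13.7, 15.4, 31.6 and 10.3 FPKM in the same mice against 21.2 to 39.9 FPKM in AOM/DSS mice, and it was called lower without mouse 35 as well (-1.10, adjusted P = 0.0141, and 0.356 with all mice).

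**Figure D5:**
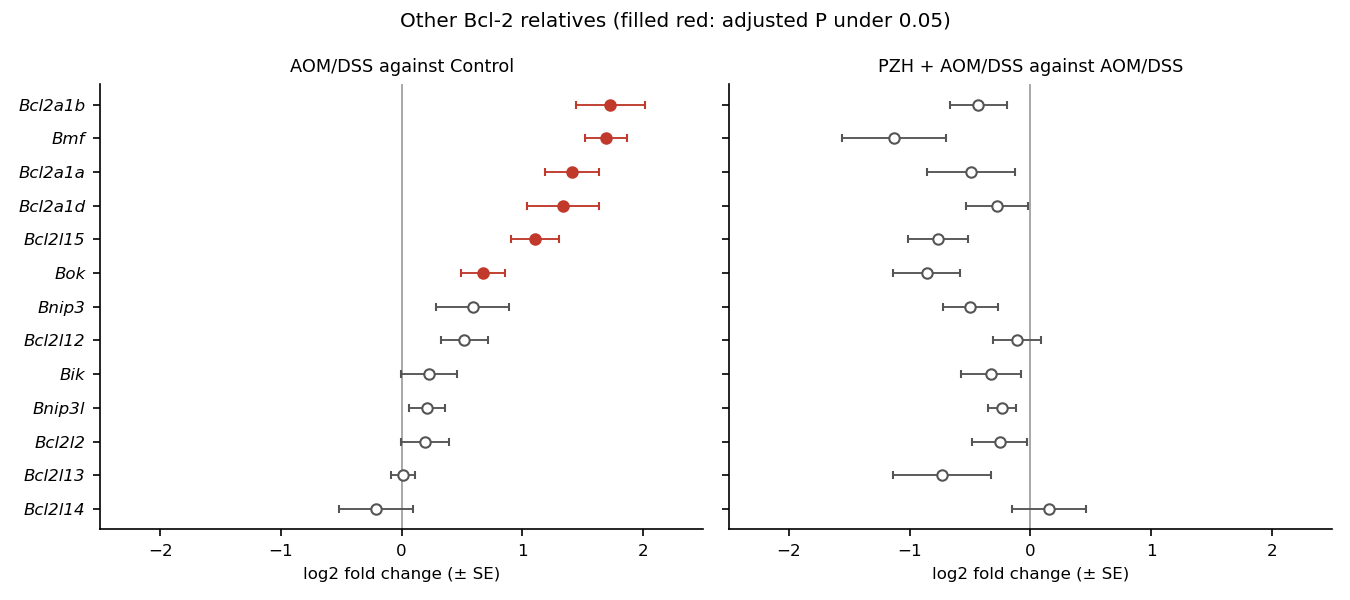
Log2 fold change (log2(FPKM + 1) scale, bars ± SE from limma, 5 mice per group) of 13 relatives of the family in AOM/DSS against Control and in PZH + AOM/DSS against AOM/DSS, with filled red points for an adjusted P under 0.05. In the first panel 6 genes are filled, all to the right of 0, and in the second none is, with Bmf at -1.13.

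In the other 5 pathway lists, 9 of 47 genes tested (19.1%) differed between AOM/DSS and Control mice, near the 23.6% of all genes. Of 12 apoptosome and caspase genes, only Apaf1 was called higher (log2 fold change 0.46, adjusted P = 0.0266), and not without Control mouse 41 or AOM/DSS mouse 23 or 52, which left 0 called. Of 9 inhibitor of apoptosis proteins and their antagonists, Xiap (0.42, adjusted P = 0.0348) and Birc2 (0.29, adjusted P = 0.0498) were called, and leaving out any 1 of the 10 mice left 0 or 1. Of 9 genes of the death receptor arm tested, Tnf (1.91, adjusted P = 0.000588) and Tnfsf10 (1.17, adjusted P = 0.00119), ligands that start caspase-8 signaling, rose, with 2 or 3 genes called without any 1 mouse. Of 9 mitochondrial partners and turnover factors, Vdac2, a channel that Bak binds, fell by 0.46 on the log2 scale (adjusted P = 0.00457). Of 8 transcription factors that act on members, E2f1 (0.67, adjusted P = 0.0331) and Stat3 (0.51, adjusted P = 0.00358) rose and Foxo3 fell by 0.42 (adjusted P = 0.0445). Without any one of Control mice 41, 48 and 50 or AOM/DSS mice 23, 44 and 52, only 1 gene of this list was called.

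No gene of these 6 lists was called with PZH alone, in PZH + AOM/DSS against AOM/DSS or in the interaction. At an unadjusted P under 0.05 by limma, 4 of 59 genes tested (6.8%) passed with PZH alone, against 8.84% of all genes. In PZH + AOM/DSS against AOM/DSS it was 9 of 60 (15%, against 11.7%), and in the interaction 8 of 60 (13.3%, against 10.3%), so these shares were near those of all genes. In PZH + AOM/DSS against PZH mice, Stat3 was called higher (0.47, adjusted P = 0.0485), a call lost without any one of PZH mice 14, 27, 46 and 53 or any one of the PZH + AOM/DSS mice. The relatives and the death receptor arm had 0 genes called there, but 1 relative passed without PZH mouse 8, and 2 relatives and 1 death receptor gene passed without PZH + AOM/DSS mouse 36. Without mouse 35, Tnf was called lower in PZH + AOM/DSS than in AOM/DSS mice (-1.13, adjusted P = 0.0390), and Bmf (-1.89, adjusted P = 0.00153) was called in the interaction.

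To describe how members vary between mice of 1 group, log2 values were centered on group means and correlated over 20 mice with 12451 genes detected in all mice, as a description. Bcl2l1 went most closely with Pmaip1 among the members (Pearson's r = 0.70), then with Bbc3 (0.63). Mouse 35, the highest of the PZH + AOM/DSS group for all of Bcl2l1, Pmaip1 and Bbc3, is included. These r were not computed without it, so they may rest largely on this mouse. The genes most like a member were Twsg1 for Bcl2 (r = 0.89), Cerk for Bcl2l1 (0.89), Slc25a12 for Mcl1 (0.89), Nt5dc2 for Bax (0.91), Lhpp for Bbc3 (0.89) and Gadd45b, a stress-induced gene, for Pmaip1 (0.89). For Bcl2l11, Pds5b (0.84) was the first, for Bad 1810037I17Rik (0.91), and for Bak1 and Bid, Errfi1 (0.73) and BC005537 (0.74) were the closest. The second in line were Tmem201, Dgkz, Rhbdl2, Bzw2, Ddit4, Gsdmd, Ap1s2, Igfbp2, Atf3 and Grb2 in the same order, with r from 0.73 to 0.90. These points share library, depth and tissue makeup, and with so many genes the highest of them is large by selection.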

How the data were processed

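RNA-seq libraries of colon from 20 mice were examined. The files the authors deposited give 1 FPKM per transcript and mouse, with no counts. The paper describes rRNA depletion followed by a step with a poly(A) mRNA isolation kit. The authors filtered reads with NGSQC, aligned them to mm10 with HISAT2 and assembled and quantified transcripts with StringTie. Strand use was not given in the sources used here. The extraction text of the labels speaks of the abdominal aorta, whereas all libraries are labelled colon.

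FPKM of 96032 Ensembl transcripts found in GENCODE M21 (GRCm38) were summed per gene, and 22252 assembled transcripts without a gene name and 150 others were left out. Group differences in log2(FPKM + 1) came from limma (version 3.58.1, R version 4.3.3), with an intensity trend, 10 mice per comparison (20 for the interaction) and no covariates. A gene was tested if 5 or more of the compared mice reached 0.5 FPKM. All 10 members passed in each comparison. P was adjusted over all genes tested (Benjamini-Hochberg), and differences under 0.05 are called. Fold changes on this scale understate changes of low genes. P-values measure the spread between mice, each with 1 library. Depth was read from the steps of FPKM multiplied by transcript length, of which 41.5 to 46.2% were whole, so it is approximate. The method was tested on simulated data.

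Members and gene lists were chosen with earlier results of these data known. Named genes were the members, up to 3 higher and 3 lower genes per list in AOM/DSS against Control, and 2 genes most like each member. Alternatives were median of ratios scaling, no filter, at least 1 FPKM in every mouse, a pseudocount of 0.1, array weights, no trend, all 20 mice in one model, single transcripts, and leaving out each mouse. A call gained only by leaving out 1 mouse depends on the choice of that mouse. For the pathway lists these were added after seeing the data. Results of some genes of the lists are not reported here.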

Additional observations from a re-analysis of the deposited data

Results flagged for a closer look

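In 3 of 40 sets of 5 values (10 members in 4 groups), 1 mouse lay far from the other 4 for the range of its group by Dixon's test, and chance alone gives about 2. Bbc3 in PZH + AOM/DSS mouse 35 was 10.9 FPKM, with 5.07 FPKM in the next mouse. Pmaip1 in AOM/DSS mouse 33 was 10.8 FPKM, with 18.3 FPKM in the next. Bcl2l11 in AOM/DSS mouse 44 was 13.7 FPKM, with 5.18 FPKM in the next.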

How the results depend on the processing

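In AOM/DSS against Control, Bcl2l1, Mcl1 and Bcl2l11 passed the test in all 17 alternatives on gene sums, Bcl2 in all but 8 and Bid in all but 9. With single transcripts, no transcript of Bcl2l1 or Bcl2l11 passed (lowest adjusted P 0.0582 and 0.0766). The number of members called was 2 with single transcripts and 3 to 5 when 1 mouse was left out. With 1 mouse left out it was 0 to 2 in PZH + AOM/DSS against AOM/DSS, 0 to 1 in PZH + AOM/DSS against PZH and 0 to 2 in the interaction, and with all 20 mice in one model it was 1 in PZH + AOM/DSS against PZH. In PZH against Control it was 0 in all, with 4 to 6 members at an unadjusted P under 0.05 when 1 mouse was left out.

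Directions held in 905 of 940 values of the members' fold changes. The 35 others belonged to 8 differences near 0, none of them called. Median of ratios scaling gave -0.072 for Pmaip1 in AOM/DSS against Control, 0.010 for Bak1 between both AOM/DSS groups, and -0.018 for Bak1 against PZH. Array weights gave 0.032 for Bak1 against AOM/DSS, -0.014 for Pmaip1 against PZH, and -0.12 for Bax and -0.076 for Pmaip1 in the interaction. When 1 mouse was left out, the values ran from -0.11 to 0.27 (Pmaip1, AOM/DSS against Control), -0.089 to 0.047 (Bak1) and -0.28 to 0.11 (Bad) against AOM/DSS, -0.12 to 0.0035 (Mcl1), -0.0099 to 0.14 (Bak1) and -0.089 to 0.18 (Pmaip1) against PZH, and -0.15 to 0.11 (Bax) and -0.21 to 0.18 (Pmaip1) in the interaction. With the most abundant transcript of each gene, the median ratio of Bax to Bcl2 was 12.8 in Control mice, 7.62 with PZH, 8.20 with AOM/DSS and 7.23 with both, and that of the pro-apoptotic to the pro-survival genes was 0.655 in Control mice and 0.731 with PZH. The cause was not tested. Without counts, no count model could be used.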
